A study of Mus musculus with 11 samples.

Results

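miR-21 was followed in mouse mammary glands and in mammary tumors on 11 arrays of a custom miRNA chip. It was chosen by name, as the spots whose annotation holds mmu-miR-21 exactly, and it is 1 of the 334 mouse miRNAs on the chip, with 4 of the 1336 plus-strand mouse spots of each array. Its 4 spots carry the same probe and are repeat measurements of 1 RNA sample, so conditions were compared over arrays. The normal tissue came from mammary glands of late-pregnant females of 3 strains, with 2 arrays of FVB, 3 of Balb/C (Balbc in the labels) and 3 of FVB129B6. The 3 C3(1)/Tag tumors (C3TAg in the labels) were primary mammary tumors of separate females of strain FVB. In this model the SV40 large and small T antigens are driven by the 5′ flanking region of the rat C3(1) gene, a prostate steroid binding protein gene. The glands are labelled as normal tissue, and no pregnant C3(1)/Tag gland and no gland of a non-pregnant mouse is among the arrays used here. By their titles, 2 of the Balb/C arrays may stem from a single mouse, and p-values then measure in part spread within a mouse, technical spread included. A gland or a tumor is a mixture of cells, in which fewer cells of a type and less RNA per cell cannot be told apart.

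miR-21 is a short RNA that is loaded into an Argonaute protein and pairs through its seed, the bases 2 to 8 at its 5′ end, with matching sites in mRNAs, which lowers the output of those mRNAs. A known target is Pdcd4, an inhibitor of translation. It is known as one of the miRNAs most often raised in human carcinomas, breast carcinoma included, and it is made by epithelial, stromal and immune cells alike.

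The mature sequence is shown because the probe reads it over its whole length. Capitals mark the seed, and the sequences are those of RefSeq on GRCm38.p6. The first line is the form the chip measures, now named mmu-miR-21a-5p. The other 2 lines are annotated mouse relatives with no probe of their own among the mouse spots used here.
mmu-miR-21a-5p: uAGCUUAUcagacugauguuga
mmu-miR-21b: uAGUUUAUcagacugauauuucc
mmu-miR-21c: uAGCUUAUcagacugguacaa

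mmu-miR-21a-5p lies at chr11:86584120-86584141 on the minus strand, within the Mir21a hairpin at chr11:86584067-86584158. The hairpin lies within the annotated span of the protein-coding gene Vmp1, a membrane protein of autophagy, which runs from 86583858 to 86683836 on the same chromosome; whether that place is exonic or intronic is not given in the table used. mmu-miR-21b, at chr3:29636768-29636790, is 5 base edits from miR-21 and has another seed. mmu-miR-21c, at chr8:128278188-128278208, is also 5 edits away and shares the seed. Signal from these relatives on the miR-21 probe was not tested.

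The probe is 60 bases long. Its first 22 bases are complementary to miR-21 and its other 38 are a linker. The complementary stretch is shown to make plain what each spot captures, with the complement of the seed in capitals.
miR-21 probe: tcaacatcagtctgATAAGCTa

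None of the other 333 mouse probes lies within 5 base edits of this stretch, and none holds the complement of the seed. The nearest is the probe of miR-686, at 8 edits. The opposite arm, mmu-miR-21a-3p, is not among the mouse spots used here.

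The signal used is the green intensity that the scanner program had background subtracted and dye normalized. In FVB glands the mean of the 4 miR-21 spots was 16125 on array 1 and 11050 on array 2. In Balb/C glands it was 52375, 48325 and 50725. In FVB129B6 glands it was 56675, 55875 and 60900. All 32 gland spots were called well above background by the program, and none was saturated. The 3 arrays of each of the other two strains thus lay above both FVB arrays, without overlap.

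On the tumor arrays the same probe gave little signal. The 4 spots of tumor 1 read 228, 161, 323 and 322. Those of tumor 2 read 145, 133, 126 and 151, and those of tumor 3 read 815, 218, 468 and 153. No spot of tumors 1 and 2 was called well above background, and on tumor 3 the program called 2 of 4. A miRNA was counted as measured on an array where at least 50% of its spots were so called, so miR-21 was measured on all 8 gland arrays and on 1 of 3 tumor arrays. The raw values say the same without any processing. The median raw intensity of the 4 spots was 100, 91.5 and 108 on tumors 1 to 3, while the 77 negative-control spots of each tumor array had medians of 93, 91 and 94. A single miR-21 spot, on tumor 3, was brighter than every negative control of its array. On the glands the raw median of miR-21 ran from 1966.5 to 11772.5, against negative-control medians of 76 to 94.

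**Figure D1:**
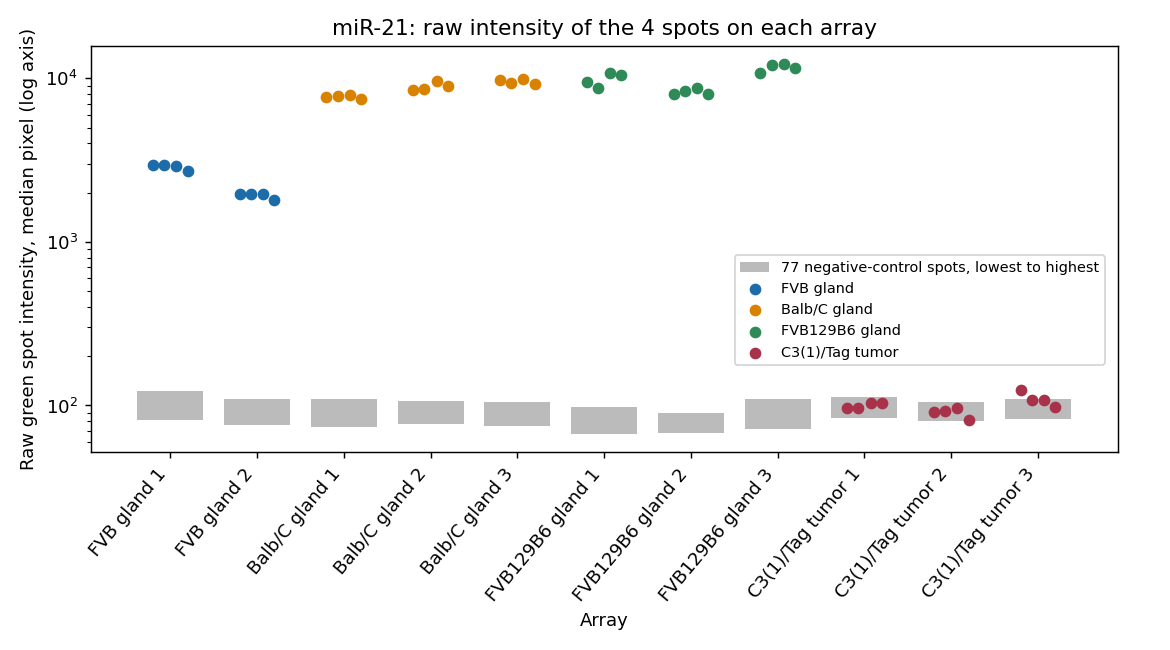
Raw green intensity (median pixel, log axis) of the 4 miR-21 spots on each of the 11 arrays, with grey bars from the lowest to the highest of the 77 negative-control spots. All gland spots sit far above the grey bars, the FVB arrays lowest among them, and the tumor spots sit within the bars or at their edge except for 1 spot of tumor 3, which lies above its bar.

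The arrays of glands and tumors differed in far more than miR-21. Of the 334 miRNAs, 209 to 262 were measured on the gland arrays and 15 to 64 on the tumor arrays. The spots for the 3′ end of U6, a small nuclear RNA that every cell makes, had a raw median of 10843 to 19642 on glands and of 100.5 to 174.8 on tumors. A hybridization control of the manufacturer (bright corner) read 2798 to 4868 on glands and 149.8 to 527.8 on tumors. Spots of random 22-base sequences, which should bind no miRNA, read 14.4 to 21.9 on glands and 114 to 159.5 on tumors in processed units. All glands lay on 1 slide and all tumors on another, and the 2 slides were extracted with versions 10.5.1.1 and 9.5.1.1 of the program, so slide, version and tissue cannot be told apart. Epithelial miRNAs (miR-141, the miR-200 group, miR-203, miR-205) were measured on all 8 gland arrays, 7 of 7, while on the tumors only miR-205 was measured on all 3 and 3 of 7 on none.

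For comparison between arrays, the log2 signals of the spots were averaged without those the program marked as outliers, and the median log2 signal of all 1336 mouse spots of the array was subtracted. A level of 0 is the median of an array. On this scale miR-21 stood at 6.04 and 5.88 in FVB glands, at 6.49, 6.57 and 6.50 in Balb/C glands and at 6.76, 6.38 and 6.82 in FVB129B6 glands. In tumors 1 to 3 it stood at 0.55, -0.02 and 1.43. From highest to lowest, the group means were 6.66 ± 0.24 (SD, n = 3) in FVB129B6, 6.52 ± 0.04 (SD, n = 3) in Balb/C, 5.96 ± 0.11 (SD, n = 2) in FVB and 0.65 ± 0.73 (SD, n = 3) in tumors. The first neighbours in that order overlapped, and the others did not.

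The repeat spots of an array agreed closely in the glands. The SD of the log2 signal among spots of 1 array had a median of 0.06 over the 8 gland arrays, while the SD between arrays of a strain, pooled over the strains, was 0.16. In the tumors the SD among spots was 0.48, 0.12 and 1.09, and the SD between the 3 arrays was 0.73.

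Whether the strain of the mouse matters for miR-21 was asked with limma over the 8 glands and the 261 miRNAs measured on at least 3 of them. The moderated F-test over the 3 strains gave an adjusted p of 0.0400 (Benjamini-Hochberg), and miR-21 was thus 1 of 120 miRNAs called, 46.0% of those tested. In FVB129B6 glands miR-21 exceeded its FVB level by 0.70 ± 0.18 (log2, SE), a 1.62-fold difference with a 95% interval of 1.20 to 2.19 (adjusted p = 0.0196). A call in that direction was made for 8.05% of miRNAs. It was higher in Balb/C than in FVB glands by 0.56 ± 0.18, a 1.48-fold difference with an interval of 1.10 to 1.99 (adjusted p = 0.0464), where 5.75% of miRNAs were called higher. Between Balb/C and FVB129B6 glands the log2 difference was -0.13, with a 95% interval of -0.52 to 0.25 (adjusted p = 0.767), and 3.45% of miRNAs were called. Within the slide column that holds an array of both these strains the difference was -0.34, 1 array against 1.

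These strain calls lay near the threshold. The F-test was lost (adjusted p 0.0600 to 0.155) on leaving out any single array other than array 2 of FVB129B6. The call of Balb/C over FVB was lost (0.0657 to 0.165) without any single array other than arrays 2 and 3 of FVB129B6. The call of FVB129B6 over FVB was lost without FVB129B6 array 1 (0.0747), FVB129B6 array 3 (0.0501) or FVB array 2 (0.0846). With the 2 Balb/C arrays that may share a mouse averaged, the F-test and the call of Balb/C over FVB were lost (limma, adjusted p 0.0564 and 0.0819). In a fit over all 11 arrays the F-test and both calls over FVB were lost (0.269, 0.229 and 0.157). The direction was the same in each of these fits.

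The scale sets the size of the strain difference. Over the 261 tested miRNAs the median log2 difference from FVB was -0.48 for Balb/C and -0.39 for FVB129B6, so relative to the median miRNA miR-21 was higher by 1.05 in Balb/C and by 1.09 in FVB129B6. This distance is the same under any scaling that takes 1 constant from each array. Scaled to the 75th percentile, miR-21 was higher than in FVB by 1.00 in Balb/C and by 1.06 in FVB129B6, and scaled to the U6 spots by 2.27 and 2.36, all with adjusted p under 0.05. The calls of all miRNAs turned with the scale: for Balb/C against FVB 15 were higher and 84 lower at the array median, 31 and 16 at the 75th percentile, and 178 and 0 against U6. For FVB129B6 against FVB the same counts were 21 and 82, 40 and 43, and 179 and 1. For Balb/C against FVB129B6 they were 3 and 6, 3 and 3, and 2 and 9.

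Other measures differed between the FVB arrays and the rest. The median processed signal of the mouse spots was 188.5 and 245.5 on the FVB arrays and 508 to 671.5 on the other 6. The processed U6 signal was 84501 and 105939 on the FVB arrays and 59877 to 108379 on the other 6, so it did not show that gap. By the scan names the FVB arrays filled the last column of the slide and no other strain shared it, so column and FVB strain cannot be told apart. The skeletal muscle miRNAs on the chip (miR-1, miR-133b, miR-206), which mark muscle fibers, were higher in both other strains, 3 of 3 called in each comparison, where 5.75% (Balb/C) and 8.05% (FVB129B6) of all tested were called higher, with median log2 differences of 5.32 and 4.15. Their summed level was 3.64 and 6.02 in FVB glands, 9.17 to 9.97 in Balb/C and 8.45 to 8.62 in FVB129B6. Of the blood and immune miRNAs, 4 of 5 were on the chip, and 1 of 4 was called, lower, in each strain against FVB: miR-451, an erythroid miRNA. Of all tested, 32.2% were called lower in Balb/C and 31.4% in FVB129B6. No member of the list was called lower in Balb/C at the 75th percentile, after quantile normalization or against U6, and none in FVB129B6 against U6. Of the 261 tested, 16, 33 and 0 were called lower in Balb/C on these scales, and 1 in FVB129B6 against U6. Against U6, 1 member of the list was called higher in each strain, where 178 (Balb/C) and 179 (FVB129B6) of all tested were. That list had a summed level of 9.63 and 9.68 in FVB, 7.87 to 9.52 in Balb/C and 7.21 to 7.72 in FVB129B6. In FVB this sum was set largely by miR-451. By strain in the same order, mean levels were 9.53, 8.15 and 6.95 for miR-451 and 4.37, 4.32 and 4.45 for miR-223. For miR-142-5p they were 4.58, 5.07 and 4.01, and for miR-150 4.13, 3.86 and 2.30. Within Balb/C miR-142-5p ran from 3.78 to 7.57 and miR-150 from 2.21 to 6.90. The summed level of the epithelial list was 8.77 and 9.80 in FVB, 8.06 to 8.94 in Balb/C and 8.90 to 9.27 in FVB129B6, and that of the stromal list (miR-143, miR-145, miR-199a, miR-214) 9.57 and 10.21, 9.12 to 9.54 and 9.18 to 9.43. The part of these in the miR-21 difference was not tested.

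**Figure D2:**
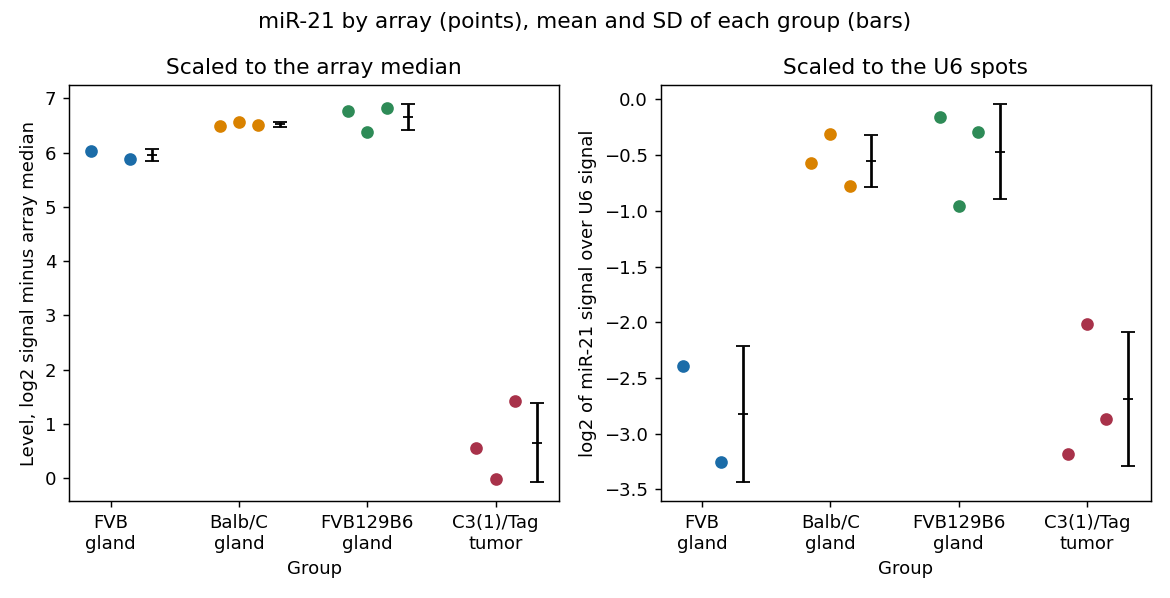
miR-21 on each array (points) with the mean and SD of each group (bars, n = 2 FVB and n = 3 otherwise): left, log2 signal minus the array median; right, log2 of miR-21 signal over the signal of the U6 spots of the same array. The tumors lie below every gland on the left, and overlap the 2 FVB glands on the right.

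C3(1)/Tag tumors were compared with the glands in a fit over all 11 arrays and 261 miRNAs. At the array median miR-21 was lower in tumors than in the mean of the 3 strains by 5.73 ± 0.26 (log2 fall, SE), a 52.9-fold difference with a 95% interval of 35.2 to 79.5 (limma, adjusted p = 5.5e-09). Calls in that direction were made for 52.5% of the tested miRNAs. All 261, miR-21 among them, pass the filter on the 8 gland arrays alone. Shares of tested miRNAs in the tumor comparisons thus describe miRNAs picked by their gland signal, and not all those on the chip. Against glands of the same strain, FVB, miR-21 was 39.5-fold lower, with an interval of 22.9 to 68.2 (adjusted p = 1.7e-07), and again 52.5% were called lower. All 3 tumors were below all 8 glands. Since miR-21 was measured on only 1 of the 3 tumor arrays, the tumor mean is in large part background; with each array floored at its lowest level well above background the differences were 22.9-fold against the 3 strains and 17.1-fold against FVB.

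The tumor difference depended on the scale even more than the strain difference. The median spot of a tumor array, to which levels were set, had a raw intensity of 93 to 98, close to the negative controls (91 to 94), whereas on glands it was 122 to 194.5. The median log2 difference of the 261 miRNAs was -0.83 against the 3 strains and -1.04 against FVB, and relative to it miR-21 was at -4.89 and -4.26, under any scaling by 1 constant. Scaled to the 75th percentile, the log2 difference of miR-21 was -2.75 against the 3 strains and -2.06 against FVB. Scaled to U6 it was -1.41 against the 3 strains (adjusted p = 0.0040) and 0.13 against FVB (adjusted p = 0.827), so that the direction turned. The calls of all miRNAs moved with it: 99 higher and 137 lower against the 3 strains at the array median became 172 and 70 at the 75th percentile and 187 and 24 against U6. Against FVB, 93 and 137 became 165 and 64, and 200 and 11.

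The ratio of miR-21 to U6 on each array shows the turn. It was 0.191 and 0.105 in FVB glands, 0.674, 0.807 and 0.582 in Balb/C glands and 0.897, 0.515 and 0.817 in FVB129B6 glands. In the tumors it was 0.110, 0.247 and 0.137. Tumors and FVB glands overlapped in this ratio, and the other two strains lay above both. On the tumor arrays the U6 spots were themselves dim: 4, 1 and 4 of 4 were called well above background on tumors 1 to 3, and miR-21 on tumors 1 and 2 was not measured, so the tumor ratios are no levels of miR-21. The scanner's second color, red, carried a signal of miR-21 as well; as a ratio of green to red the log2 difference was -0.25 against the 3 strains (adjusted p = 0.252) and 0.26 against FVB (adjusted p = 0.381). The labels name a single dye for each sample and do not say what RNA the red channel holds.

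**Figure D3:**
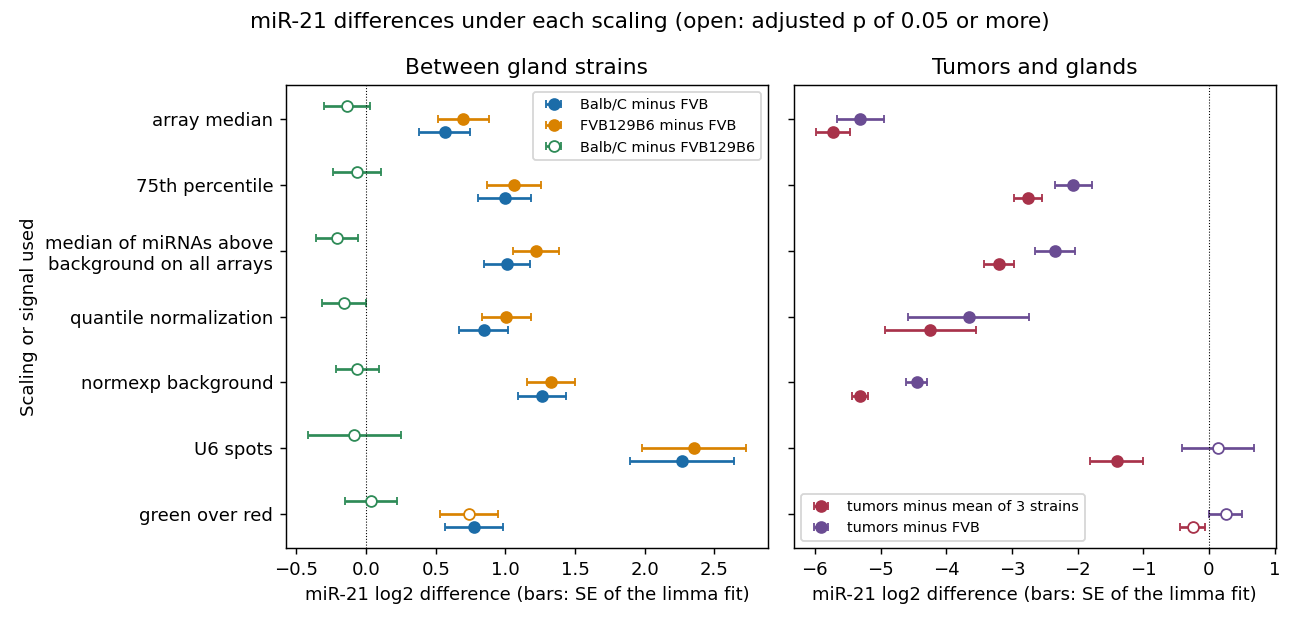
Log2 difference of miR-21 (points, bars are the SE of the limma fit) between gland strains, left, and between tumors and glands, right, under 7 ways to scale or measure the signal; open points have an adjusted p of 0.05 or more. The 2 differences from FVB stay above 0 under each, the difference of Balb/C from FVB129B6 stays between -0.21 and 0.03, and the difference of tumors from FVB passes to the other side of 0 against U6 and as green over red.

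Rank within an array needs no scaling between arrays. With rank 1 for the highest of the 334 signals, miR-21 was at 41 and 49 in FVB glands, at 31, 29 and 31 in Balb/C glands and at 25, 31 and 26 in FVB129B6 glands. In tumors it was at 93, 237 and 73. The mean ranks of the strains were 45.0, 30.3 and 27.3, a range of 17.7 (exact permutation of the strain labels over the 8 glands, 560 relabelings, p = 0.0143). That call was lost without either FVB array, with a range of 21.7 without array 1 and of 13.7 without array 2 (exact permutation p = 0.0571 for each). The mean rank of the tumors was lower down by 101.5 places than that of the glands (exact two-sided permutation over 11 arrays, p = 0.0061, the smallest that 165 relabelings can give). On each tumor array the rank of miR-21 lay past the number of miRNAs measured there, which was 38, 15 and 64. On tumors 1 and 2, where no miR-21 spot was called well above background, the ranks are places among spots not told from background. Without tumor 2 the difference was 50.1 places.

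As a share of the summed green signal of all 334 miRNAs, miR-21 made up 0.595% and 0.449% in FVB glands, 1.10%, 1.10% and 1.11% in Balb/C glands and 1.44%, 1.14% and 1.34% in FVB129B6 glands. In tumors the share was 0.137%, 0.129% and 0.172%. The 4 groups kept the order of the levels, and the FVB glands again lay between the tumors and the other two strains. Signals of different probes are not on 1 scale, so a share describes the array and not the number of molecules. By mean level over the 8 glands miR-21 held place 34.

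**Figure D4:**
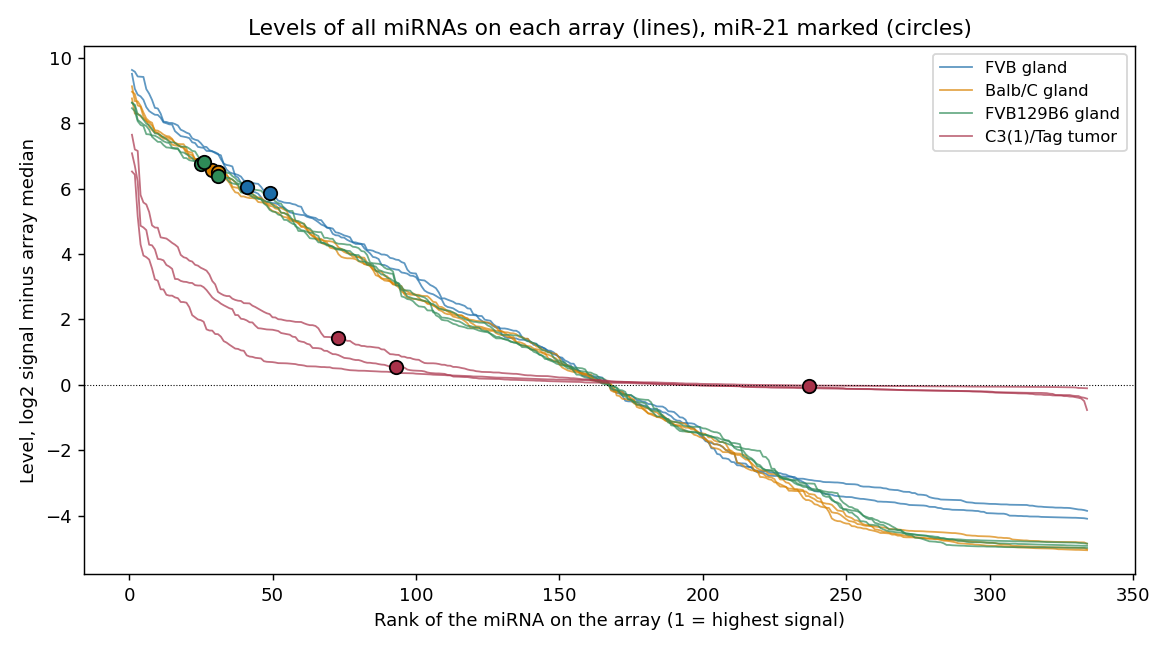
Levels of the 334 miRNAs on each array (log2 signal minus array median), sorted from the highest (rank 1) to the lowest, 1 line per array, with miR-21 as a circle. miR-21 sits on the steep upper part of the gland curves at ranks 25 to 49, and on the flat part of the tumor curves at ranks 73 to 237.

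Most miRNAs measured in the glands were, like miR-21, not measured on every tumor array. Of the 204 miRNAs measured on all 8 gland arrays, 142 were measured on no tumor array, 28 on 1, 19 on 2 and 15 on all 3, and miR-21 was among the 28. Among the 10 miRNAs with the highest mean gland level, 4 (miR-143, miR-451, miR-148a and miR-146b) were measured on no tumor array and 6 (miR-720, let-7c, let-7a, miR-690, miR-145 and let-7b) on all 3. Both sets, the 204 and the 10, were picked by their gland signal.

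A list of 10 further miRNAs that are often raised in tumors was set beside miR-21, and all 10 were on the chip and tested. Against the 3 strains, 6 were called lower (52.5% of all tested were), 2 were called higher (37.9% of all tested were) and 2 passed in neither direction, with a median log2 difference of -2.27 beside -0.83 over all tested. Those called lower were miR-17-5p, miR-18, miR-19a, miR-19b and miR-20a of the miR-17-92 cluster, and miR-210, a miRNA of hypoxia. Those called higher were miR-221 by 1.09 ± 0.28 (log2, SE; adjusted p = 0.0034) and miR-222 by 1.41 ± 0.35 (adjusted p = 0.0027), neighbours in 1 cluster that share their seed. miR-155, a miRNA of activated lymphocytes, and miR-92, also of the miR-17-92 cluster, differed by -0.73 and -0.20 and passed in neither direction. These directions too turned with the scale: 5 were higher and 5 lower at the 75th percentile (172 and 70 of all tested), 5 and 1 against U6 (187 and 24), and 0 and 9 after a normexp background correction (86 and 150), under which miR-221 and miR-222 were lower by 1.51 and 0.67 (differences of -1.51 and -0.67). Of the 10, miR-92 and miR-221 were measured on all 3 tumor arrays. The 5 measured on none were miR-17-5p, miR-18, miR-19a, miR-20a and miR-155, and miR-19b was measured on 1. Against FVB glands, 6 of the 10 were called lower and 0 higher at the array median, where 52.5% and 35.6% of all tested were. Between strains, 2 were called lower in Balb/C than in FVB, miR-210 (-1.24) and miR-222 (-0.83), and 1 in FVB129B6, miR-222 (-0.81), while 32.2% and 31.4% of all tested were lower in these strains. None of the 10 was called higher with miR-21 in either strain at the array median. Of all tested, 5.75% (Balb/C) and 8.05% (FVB129B6) were called higher there. At the 75th percentile 0 of 10 were called lower in either strain, where 16 (Balb/C) and 43 (FVB129B6) of all tested were. On that scale miR-18, miR-19a and miR-20a were called higher in FVB129B6, where 40 of all tested were. In Balb/C 0 of 10 were called higher there, and 31 of all tested. Against U6, 9 of 10 were called higher in each strain, where 178 (Balb/C) and 179 (FVB129B6) of the 261 tested were. miR-222 was among them, at 0.88 in Balb/C and 0.84 in FVB129B6, so its direction turned.

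The marker lists moved with the tumor comparison as well. Against the 3 strains, 7 of 7 epithelial, 4 of 4 stromal, 3 of 4 blood and immune and 3 of 3 skeletal muscle miRNAs were called lower at the array median, where 52.5% of all tested were, with median log2 differences of -4.26, -4.46, -3.76 and -4.79. These calls depended on the scale and on the glands compared. At the 75th percentile 6 epithelial, 3 stromal, 2 blood and immune and 2 muscle members were lower, and 1 stromal and 1 muscle member were higher. Of the 261 tested, 70 were called lower on that scale and 172 higher. Against U6, 2 epithelial, 1 stromal, 1 blood and immune and 1 muscle member were lower, while 1 stromal, 2 blood and immune and 1 muscle member were higher. Of the 261 tested, 24 were called lower against U6 and 187 higher. Against FVB glands at the array median, 7 epithelial, 4 stromal and 3 blood and immune members were again lower, and of the muscle members 1 was higher and 1 lower. Of all tested, 52.5% were called lower against FVB and 35.6% higher. The summed epithelial level was 4.26 to 4.68 in tumors and 8.06 to 9.80 in glands, and the summed stromal level 3.35 to 4.39 in tumors and 9.12 to 10.21 in glands. The blood and immune sum was 2.64 to 3.89 in tumors and 7.21 to 9.68 in glands, and that of muscle 1.73 to 4.74 and 3.64 to 9.97. The endothelial list had 1 of 2 members on the chip, miR-126-5p, which was measured on no tumor array and lay at levels of -4.13 to -1.76 in glands and of -0.07 to 0.21 in tumors. It was called higher in tumors by 3.28 ± 0.32 (log2, SE; limma, adjusted p = 2.4e-06), where 37.9% of all tested were. Its tumor signal was not told from background, so this value is no level of miR-126-5p in tumors. As a ratio of green to red its difference was 0.08 and not called. The part of the marker lists in the miR-21 difference was not tested.

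Among the 203 other miRNAs measured on all 8 glands, those whose level followed miR-21 most closely over the 8 arrays were miR-382 (Pearson r = 0.89), miR-712 (0.85), miR-188 (0.84), miR-206 (0.83) and miR-207 (0.80). These correlations are a description over 8 arrays that share a slide and include the 2 FVB arrays. miR-382 lay at -0.73 and -0.58 in FVB glands and at 0.14 to 0.43 in the other 6. miR-206, of skeletal muscle, lay at -1.83 and 0.06 in FVB glands and at 3.70 to 4.99 in the others. Both thus separated FVB from the rest as miR-21 did, and so did miR-712 and miR-207. miR-188 did not: it lay at -0.71 and -0.90 in FVB, at -0.81 on FVB129B6 array 2 and at -0.72 on Balb/C array 1. None of the 5 shares the seed of miR-21, and their probes are 11 to 16 base edits from that of miR-21. With levels scaled to the 75th percentile, 3 of these 5 (miR-382, miR-712 and miR-188) were again among the nearest 5.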

How the data were processed

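Total RNA was labeled and hybridized to a custom 2-color Agilent chip. The authors deposited, for each of the 11 scans, green and red intensities of every spot, background subtracted and dye normalized by Feature Extraction, with quality flags. A deposited table of log2 values holds the green signals of the 1336 mouse spots after median normalization. From the scanner files log2 green signal was taken, the array median subtracted, outlier spots left out and the spots of a miRNA averaged. Probe sequences came from the tumor scans. A miRNA was tested if at least 50% of its spots were well above background on at least 3 arrays of the fit. Tests used limma 3.58.1 in R 4.3.3 with Benjamini-Hochberg adjustment over 261 miRNAs and a threshold of 0.05, and exact permutation tests of ranks (Python 3.11.15). A summed level is log2 of the sum of the members' linear levels. Fits were tested on simulated data, where the contrast of Balb/C and FVB missed many of the smaller simulated differences. miR-21, the lists and the naming rule (miR-21, the 5 miRNAs nearest in level, miRNAs close in sequence, called members of the tumor list) were chosen with earlier results of these data known. The number of arrays limits the precision. The alternatives tried were other scalings and signals, filters, floors, spot choices, blocks, sets of arrays and single arrays left out.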

Additional observations from a re-analysis of the deposited data

Results flagged for a closer look

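The red channel of the scans enters the comparisons above only through the ratio of green to red, and it held signal for miR-21. The mean processed red signal of the 4 spots was 64037.5 over the 8 glands (range 23075 to 86825), where all 32 spots were well above background and random 22-base spots had medians of 14.4 to 23.6. On the 3 tumor arrays it was 219.8 to 712, with 3 of the 12 spots well above background and random spots at 125 to 158. What RNA was labeled in red is not stated in the labels.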

How the results depend on the processing

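On the tumor arrays 15 to 64 of 334 miRNAs were measured, and miR-21 on 1 of 3 arrays. The strain results rest on 2 FVB arrays in 1 slide column. The difference of tumors from the 3 strains kept its direction in all 31 alternatives (-7.23 to -0.25) and its call in all but the green to red ratio (-0.25). The difference from FVB kept both in 29 of 31, and turned to 0.26 as a green to red ratio and to 0.13 against U6. The rank difference of tumors was 50.1 to 132.1 places over 17 alternatives, each with the smallest p its relabelings can give. The filter on every array gave no value for the tumor differences, as miR-21 was not measured on all 11.

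The differences of Balb/C and of FVB129B6 from FVB kept their direction in all 29 alternatives. Calls were lost in some of them, given here with the log2 value in brackets. The range of the 3 strain means lost its call as a green to red ratio (0.77). That call was also lost with spot 1, 2 or 4 alone (0.63, 0.63 and 0.67) and the replicate number as a block (0.66). The same held with 2 Balb/C arrays averaged (0.70) and with all 11 arrays in the fit (0.70). Balb/C minus FVB lost its call with the median over spots (0.54) and with spot 1, 2 or 4 alone (0.51, 0.51 and 0.52). That call was lost, too, with the replicate block (0.53), 2 Balb/C arrays averaged (0.56) and all 11 arrays (0.56). FVB129B6 minus FVB lost its call as a green to red ratio (0.74), with spot 4 alone (0.67) and with all 11 arrays (0.70). Spot 4 of FVB array 2 was marked as an outlier and left out, so the fits with spot 4 alone rest on 1 FVB array. Leaving out single arrays gave 0.61 to 0.84, 0.48 to 0.64 and 0.61 to 0.84 for these 3 results, with the call lost in 7, 6 and 3 of 8. Balb/C minus FVB129B6 was called in none of 29, and turned to 0.033 as a green to red ratio. The rank range of the strains lost its call as a green to red ratio (38.7, p = 0.168 by exact permutation), and without either FVB array (all single arrays left out: 13.7 to 21.7).

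No label names a shared source for arrays with the same replicate number, and they were not treated as paired. In deviations from the group means, arrays of different groups with the same number correlated from -0.28 to 0.42 over 15 pairs (mean 0.04), and others from -0.51 to 0.28 over 30 pairs (mean -0.02). The U6 scaling was chosen after seeing the data.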
